A study of Mus musculus with 2 samples.

Results

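Narrow promoter peaks are short stretches of open chromatin, at most 300 bp wide, that lie within 1 kb of an annotated transcript start. They were studied in mouse hearts by ATAC-seq, an assay whose enzyme, the transposase Tn5, inserts sequencing adapters where DNA is free, so that reads pile up over open chromatin. The members were chosen from the deposited peak table by 3 conditions: annotation as a promoter within 1 kb, a width of 300 bp or less, and at least 1 Gene Ontology (GO) term for the closest gene. They number 3069 peaks of 2618 genes, out of 83549 peaks in all and out of 16462 such promoter peaks of any width. Width was measured in these libraries, so it chose the members and is no finding. The other 13393 promoter peaks of genes with GO terms are wider and serve as the comparison, beside 28025 narrow peaks that lie outside promoters.

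The study compared 2 genotypes at 4 days of age, with 1 library each. The control library came from a pool of hearts of 7 Wtapflox/flox mice, which carry Wtap alleles flanked by loxP sites. The other came from a pool of hearts of 6 Wtap-CKO mice, a knockout of Wtap in cardiomyocytes only, so that other heart cells kept the gene. The driver of the deletion is not given in the sources used here. Because whole hearts were pooled, fewer cells of a type and less open chromatin per cell cannot be told apart. With 1 library per genotype, genotype and library cannot be told apart either, no test was possible, and each difference below is one between these 2 libraries.

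A promoter is the stretch around a transcript start where the transcription machinery assembles. At active genes it is kept free of nucleosomes, which gives strong and broad ATAC-seq signal. A narrow peak near a start can be a weakly open promoter, an alternative start of a gene whose main promoter is elsewhere, or a small open site beside a larger one. The WTAP protein belongs to the writer complex that adds methyl groups to adenosines of RNA in the nucleus. The Wtap locus itself was not analysed here, and no sequence is printed because no genome of the build of these coordinates (GRCm39) was at hand.

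All peaks together held 9835753 reads in the control and 9816384 in the knockout library, and the members took 1.63% and 1.64% of these. A member had a median of 44 reads in Wtapflox/flox, with a range of 4 to 429, and a median of 46 in Wtap-CKO, with a range of 4 to 894. Wider promoter peaks had medians of 214 and 206 reads, and narrow peaks outside promoters 34 and 37. Per 100 bp of peak, the median was 18.4 reads in the members and 32.6 in wider promoter peaks, so the members were weaker as well as shorter. At counts like these, sampling of reads alone gives wide intervals, and the depth limits what a single member can show.

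As a set, the narrow promoter peaks were about equally open in both libraries. The ratio used here is the log2 of knockout over control, from counts scaled to the reads in all peaks (CPM) with 0.5 CPM added. Its median was -0.04 over the 3069 members, -0.07 over wider promoter peaks, 0.06 over narrow peaks outside promoters and 0.00 over all peaks. The summed reads of all members gave 0.01 (95% counting interval -0.004 to 0.016), against -0.07 for wider promoter peaks (-0.07 to -0.06). Intervals are exact, come from the counts with nothing added, and cover counting error only. The scaling sets the zero: with the library totals behind the authors' values (RPM), the median of all peaks moved by -0.20 and that of the members to -0.24. The median log2 ratio in the authors' deposited table was -0.26 for the members and -0.28 for wider promoter peaks.

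Single members scattered about as much as wider promoter peaks of like read count. With 60 to 100 mean reads, the quartiles of the log2 ratio were -0.33 and 0.30 in members and -0.31 and 0.29 in wider peaks. With 40 to 60 reads they were -0.32 and 0.45 against -0.47 and 0.33. Without matching for reads, 67.0% of members that passed a floor on reads lay within 0.5 of zero, against 87.4% of the wider peaks, which hold more reads. Differences were counted among peaks with a mean of at least 3.92 CPM, the 25th percentile of all peaks, or about 38.5 reads per library. Of the members, 1890 passed that floor and 1179 did not. A peak passes through the library in which it is high, so the counts describe those that passed and not all members. Of those that passed, 72 had a 2-fold or larger excess in the knockout (3.81%, against 3.5% of all peaks) and 36 a 2-fold or larger deficit (1.90%, against 1.45%). In wider promoter peaks the shares were 0.72% and 0.57%, and in narrow peaks outside promoters 4.35% and 1.73%. The members' shares thus lay near the background of all peaks. The gap to wider peaks went with reads: with 60 to 100 reads the shares were 1.19% higher and 1.33% lower in members and 2.18% and 1.09% in wider peaks. With 40 to 60 reads they were 6.39% and 2.49% against 4.36% and 3.81%. With the library totals the split turned around, to 22 higher and 101 lower, where all peaks had 1.75% and 3.54%. The counting interval lay above 0 in 17.2% of members (all peaks 19.5%) and below 0 in 15.0% (all peaks 18.3%).

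**Figure D1:**
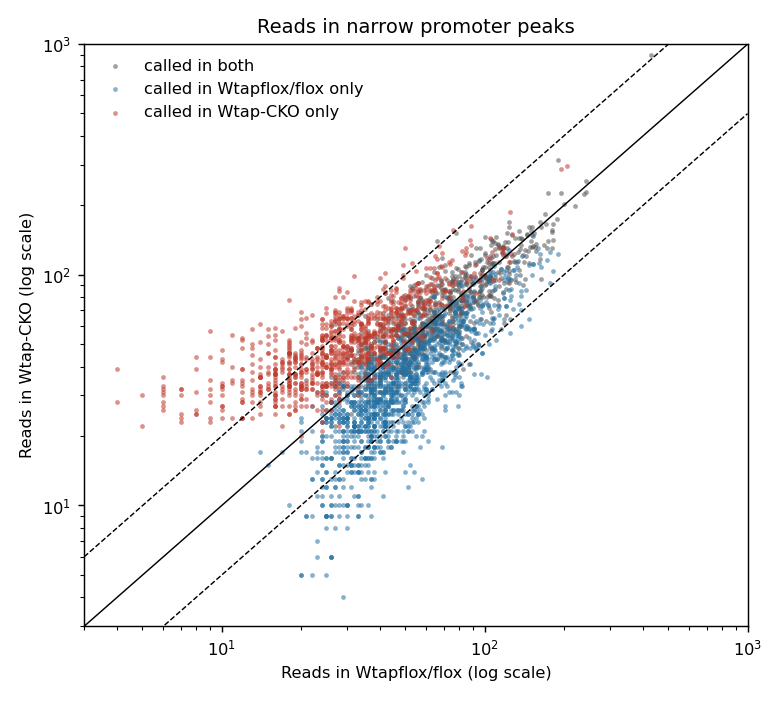
Reads of each of the 3069 narrow promoter peaks in Wtapflox/flox (x axis, log scale) and Wtap-CKO (y axis, log scale), coloured by the library in which the authors called the peak. The solid line marks equal CPM and the dashed lines a 2-fold difference. Most peaks called in a single library lie on the side of that library, and most of the 835 called in both lie along the line. The exceptions include 31 of the 922 called in Wtap-CKO only and 123 of the 1312 called in Wtapflox/flox only, whose ratios point to the other library.

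Most members were called as a peak in a single library. The authors marked 835 of them (27.2%, 95% exact binomial interval 25.6 to 28.8) as called in both libraries, where all peaks had 61.2% and wider promoter peaks 93.4%. Another 922 (30.0%) were called in Wtap-CKO only (all peaks 17.6%) and 1312 (42.8%) in Wtapflox/flox only (all peaks 21.2%). The mark follows the counts: members called in Wtap-CKO only had medians of 48 reads there and 29 in Wtapflox/flox, and members called in Wtapflox/flox only had 32 and 45. Members called in both had medians of 64 and 63 reads. In 31 of the 922 and 123 of the 1312 the ratio nevertheless pointed to the other library. Members called in a single library thus had reads in the other library too.

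Width and mark are not independent. The share called in both was 0.40% among the 498 members of exactly 200 bp, the smallest width in the table, and 7.61%, 23.8%, 41.0% and 56.8% in the 4 width classes from 201 to 300 bp. The deposited summit list has 2 summits in each of the 835 members called in both, and 1 summit in 919 of the 922 and 1311 of the 1312 called in a single library. A peak called in both thus merges 2 calls, and the share by width is a description with no test. The median ratio varied little across the width classes, from 0.00 at 200 bp to -0.06 at 276 to 300 bp. Just inside the limit, 237 members of 291 to 300 bp had a median ratio of -0.09, and 62.4% were called in both. Just outside, 253 promoter peaks of 301 to 310 bp had a median ratio of -0.09, and 65.2% were called in both.

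The share called in both, set out by read count, is also fixed in part by the rule, since merging 2 calls widens a peak. It is given as a description only. With mean reads of 40 to 60, the share was 29.5% (26.6 to 32.6) for members, 51.5% (47.8 to 55.2) for wider promoter peaks and 43.6% (42.4 to 44.7) for narrow peaks outside promoters. With 60 to 100 reads it was 49.6% (45.8 to 53.5), 83.6% (81.8 to 85.3) and 61.3% (59.5 to 63.0). With 30 to 40 reads it was 11.4% (9.14 to 14.1) for members and 15.6% (10.04 to 22.7) for wider promoter peaks, with overlapping intervals. With 20 to 30 reads the share was 1.65% for members, and the 24 wider peaks there give an interval of 0.11 to 21.1%.

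**Figure D2:**
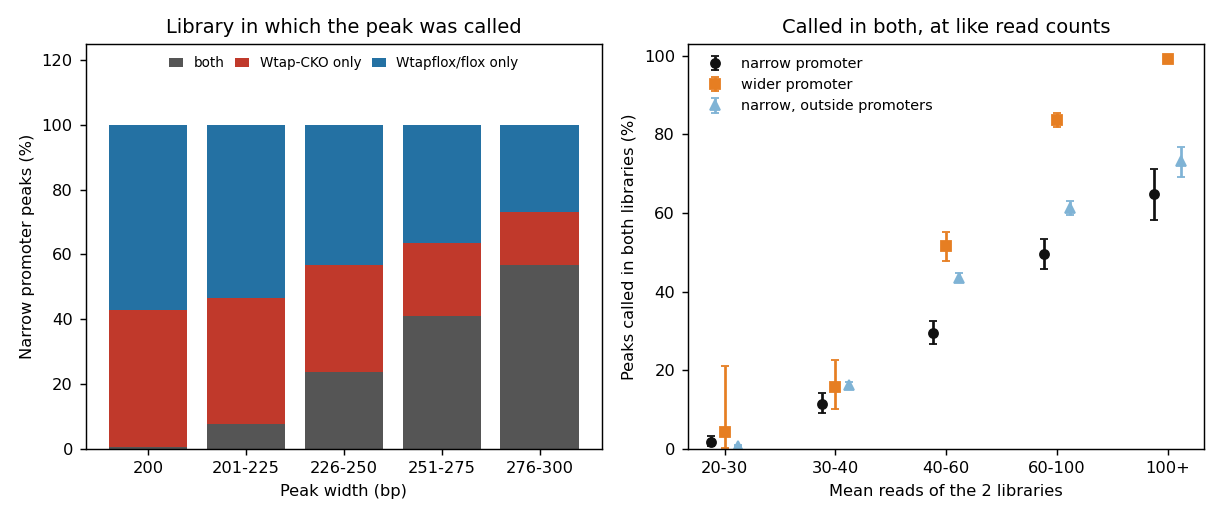
Left, the percentage of narrow promoter peaks called in both libraries, Wtap-CKO only or Wtapflox/flox only, by peak width in bp. Right, the percentage called in both libraries by mean reads, for narrow promoter, wider promoter and narrow non-promoter peaks, with 95% exact binomial intervals. The share called in both grows from 0.40% at 200 bp to 56.8% at 276 to 300 bp, and with 60 to 100 reads it is 49.6% in narrow and 83.6% in wider promoter peaks, a gap that the choice by width helps to set.

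Narrow promoter peaks mostly lay beside the annotated start rather than on it. Of the members, 1036 (33.8%) overlapped the start, 874 (28.5%) lay upstream and 1159 (37.8%) downstream. Of wider promoter peaks, 82.4% overlapped it. A wider peak has more room to overlap a start, so this share too follows in part from the rule. The distance is to the nearest annotated transcript start of any transcript, which need not be the main start of the gene in heart.

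Members over the start had the lower ratios. Their median was -0.11 and their summed ratio -0.07 (-0.09 to -0.06), against a median of 0.00 and a summed ratio of 0.05 (0.04 to 0.06) in the 2033 members off the start. Among members that passed the floor, 15 of 611 over the start were 2-fold higher (2.45%, all peaks 3.5%) and 14 were 2-fold lower (2.29%, all peaks 1.45%). Off the start, 57 of 1279 were 2-fold higher (4.46%) and 22 were 2-fold lower (1.72%). The order was the same within classes of read count: with 40 to 60 reads the medians were -0.08 over and 0.06 off the start, and with 60 to 100 reads -0.12 and 0.00. In wider promoter peaks the medians were -0.07 over and -0.04 off the start, without matching for reads. At like reads the wider peaks had the same order as the members. Their medians were -0.12 over and -0.05 off the start with 40 to 60 reads, and -0.07 and 0.02 with 60 to 100 reads. Off the start, the medians were 0.03 in the 367 members 501 to 1000 bp upstream, 0.03 in the 507 up to 500 bp upstream, -0.06 in the 688 up to 500 bp downstream and 0.04 in the 471 farther downstream. This split by position was made after the ratios had been seen, and the cause of the gap was not tested.

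**Figure D3:**
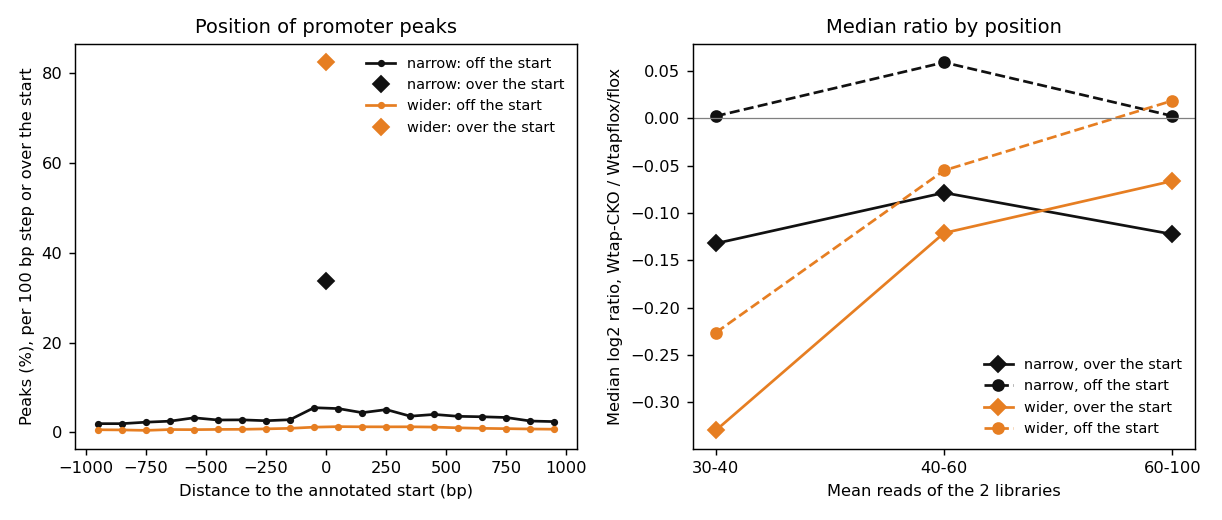
Left, the percentage of narrow and wider promoter peaks over the annotated start (diamonds) and in each 100 bp step of distance from it (lines, negative upstream). Right, the median log2 ratio, knockout over control, by mean reads, over and off the start. Narrow peaks over the start have lower medians than those off it in each class of reads shown, -0.12 against 0.00 with 60 to 100 reads. Wider peaks have the same order, with -0.07 against 0.02 in that class.

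Most members belong to a gene that has a wider promoter peak as well. For 2010 members of 1688 genes, the gene has a wider promoter peak, and the one with the most reads is called its companion here. Companions had a median of 235 mean reads against 49 in these members, and 84.9% of them overlapped a start. The gap between member and companion had a median of 3968 bp, with quartiles of 367 and 27561.5 bp, and 71.2% of members lay downstream in the direction of the gene. Of these members, 827 lay within 1000 bp of the companion and 1183 farther away. Whether member and companion lie at the same annotated start was not compared. A further 240 members of 111 genes had only other narrow promoter peaks beside them, and 819 were the only promoter peak of their gene.

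Members with a companion had a median log2 ratio of 0.00, and their companions had -0.10. The median difference was 0.11, with the member above its companion in 1174 cases and below it in 836. The 819 lone members had a median of -0.12, with medians of 37 reads in the knockout and 38 in the control, and 51.5% of them overlapped the start. Position and company overlap, and within position the lone members had -0.15 over and -0.08 off the start, while members with a companion had -0.08 and 0.03. The gap shrank among members that passed the floor, to -0.03 in 379 lone members and 0.00 in 1396 with a companion. There the lone members had -0.08 over and 0.03 off the start, and members with a companion -0.11 and 0.03. Among members that passed the floor, 74 with a companion were 2-fold higher or lower, and 0 of their companions differed 2-fold. Of all wider promoter peaks over the floor, 0.72% were 2-fold higher and 0.57% lower, so 0 lies near the background. The 74 were picked for their large ratios, which in part fixes the contrast with their companions. The companion's interval included 0 in 40 of the 74, lay on the same side as the member in 17 and on the opposite side in 17. Over all wider promoter peaks that passed the floor, the interval lay above 0 in 12.1% and below 0 in 24.0%.

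The members with the largest differences were taken from those at or above the median of 44.5 mean reads, and their genes are described by Ensembl ID and GO terms because the files pair no symbols with the IDs. The 10 largest in the direction of Wtap-CKO were all called in that library only. The first belongs to ENSMUSG00000037791, annotated to the Sin3 corepressor complex, at chr11:77913596-77913875, upstream of a start. It had 78 reads in the Wtap-CKO library against 18 in the control, a ratio of 1.86 (1.37 to 2.95). The gene's companion had 742 and 668 reads, so the stronger promoter peak of the same gene differed far less.

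A promoter peak of ENSMUSG00000038170 (chr3:97776131-97776347), annotated to the myofibril, Golgi apparatus and centrosome, had 69 reads in the knockout and 20 in the control, a ratio of 1.57 (1.05 to 2.59). A second member of that gene, at chr3:97732648-97732866, had 71 and 70 reads. The second site was even between the libraries. ENSMUSG00000022476, annotated to RNA polymerase III and to immune processes, had 99 and 32 reads at chr15:81799880-81800107, with an interval of 1.04 to 2.26 on the log2 scale. ENSMUSG00000040209, a transcription factor by its terms, had 88 and 28 reads at chr3:9505628-9505860, with an interval of 1.03 to 2.32. Both had companions with somewhat fewer reads in Wtap-CKO, 199 against 237 and 225 against 299.

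The others include regulators of chromatin, the cell cycle and signalling. ENSMUSG00000107283, annotated to channel activity and the mitochondrial inner membrane, had 85 reads in the knockout and 28 in the control over a start at chr5:31310963-31311216. ENSMUSG00000025332, annotated to histone demethylation and chromatin remodeling, had 67 and 22 over a start at chrX:151016119-151016385. ENSMUSG00000062604, a kinase annotated to spliceosome assembly, had 80 and 27 at chr5:23821881-23822180. Their ratios lay between 1.41 and 1.45. ENSMUSG00000020015, a cyclin-dependent kinase by its terms, had 72 and 25 reads over a start at chr10:93017425-93017704. ENSMUSG00000043895, a G protein-coupled receptor of the sphingolipid pathway, had 84 and 30 reads at chr9:20884037-20884331. ENSMUSG00000041220, a fatty acid elongase, had 80 and 29 reads at chr3:129326648-129326941. The last of them is the exception in having no wider promoter peak.

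The 10 largest in the direction of Wtapflox/flox were all called in that library only. Among them, 2 belong to genes annotated to the nucleosome, which are taken up with their group below. ENSMUSG00000025451, a translation activator by its terms, had 36 reads in the knockout and 102 in the control at chr13:119564797-119565079, a ratio of -1.38 (-2.09 to -0.94). Its companion had 310 and 419 reads, lower in Wtap-CKO as well but by less. ENSMUSG00000045667, annotated to tropomyosin binding and to the M and I bands of the sarcomere, had 26 and 71 reads at chr11:72293003-72293224, a ratio of -1.29 (-2.15 to -0.78). A second member of that gene, at chr11:72301857-72302066, had 79 and 119 reads, and its companion 181 and 254. For this gene all 3 promoter peaks named here had fewer reads in Wtap-CKO.

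ENSMUSG00000017756, a potassium and chloride symporter by its terms, had 30 reads in the knockout and 80 in the control over a start at chr13:73881073-73881304. ENSMUSG00000022020, of the NatA complex that acetylates protein N termini, had 27 and 71 at chr14:79627228-79627456. ENSMUSG00000023336, an extracellular inhibitor of endopeptidases, had 31 and 78 at chr8:120392072-120392279. Their ratios lay between -1.28 and -1.20. The remaining 3 had ratios of -1.19 to -1.18 and belong to a septin (ENSMUSG00000059248, 33 and 82 reads), a kinase annotated to Wnt signalling (ENSMUSG00000003345, 37 and 91) and a transcription factor (ENSMUSG00000072294, 33 and 81). Among their companions that of ENSMUSG00000072294 stood lowest in Wtap-CKO, with 117 reads against 227.

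**Figure D4:**
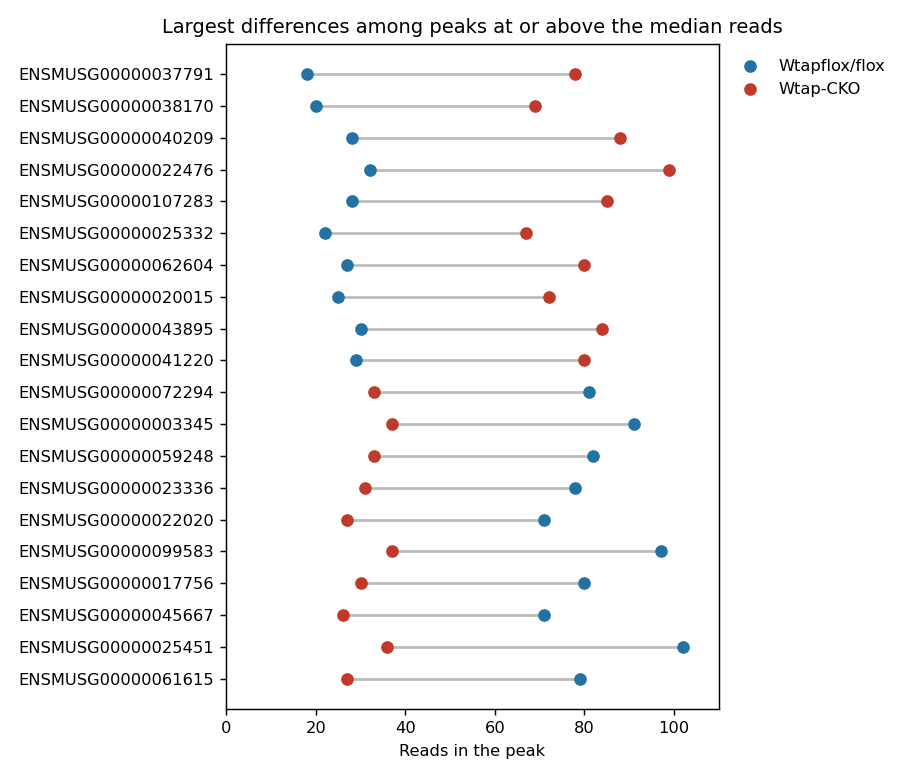
Reads in Wtapflox/flox (blue) and Wtap-CKO (red) for the 20 narrow promoter peaks with the largest log2 ratios, 10 in each direction, among members with at least the median of 44.5 mean reads; the y axis gives the Ensembl gene ID. The lower of the 2 counts lies between 18 and 37 reads and the higher between 67 and 102.

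The 5 members with the most reads gave the tightest intervals. The strongest, of ENSMUSG00000003199 (chr17:56312767-56313005), annotated to deubiquitination and chromatin remodeling, had 894 reads in the knockout and 429 in the control, a ratio of 1.05 (0.89 to 1.23). It was called in both libraries, and its companion had 368 and 418 reads. Whether reads map uniquely in this peak was not checked. ENSMUSG00000057156, annotated to DNA binding and the nucleolus, had 314 and 190 reads at chr14:55109159-55109391, a ratio of 0.71 (0.46 to 0.995). ENSMUSG00000040759, annotated to cytokine activity, had 287 and 195 reads at chr14:55174024-55174255, a ratio of 0.55 (0.29 to 0.83). ENSMUSG00000023764, a centriole gene by its terms, had 297 and 205 at chr11:3137492-3137705, a ratio of 0.53 (0.28 to 0.80). ENSMUSG00000017774, an actin-based motor, had 254 and 244 at chr11:75542211-75542506, a ratio of 0.06 (-0.20 to 0.32). All but the last had intervals above 0 in the direction of Wtap-CKO. These 5 do not stand for strong members as a class. Of the 219 members with at least 100 mean reads, 12.8% had an interval above 0 and 18.7% below 0.

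Genes of the contractile apparatus had narrow promoter peaks that were close to even as a group. The sarcomere and myofibril list had 67 members of 49 genes, with a median log2 ratio of 0.03, against -0.15 in 200 wider promoter peaks of the list. Of the 42 members that passed the floor, 2 were 2-fold higher (4.76%, all peaks 3.5%) and 1 was 2-fold lower (2.38%, all peaks 1.45%). The interval lay above 0 in 9 (21.4%, all peaks 19.5%) and below 0 in 8 (19.0%, all peaks 18.3%), so these shares lay near the background. In wider peaks of the list it lay above 0 in 18 and below 0 in 75 of 197. All wider promoter peaks leaned the same way but less strongly than those of the list, with 12.1% above and 24.0% below 0. The narrow peaks of the list, which hold fewer reads, did not show this lean under this scaling. With the library totals the medians were -0.18 in narrow and -0.36 in wider peaks of the list. The difference between the 2 sets was not tested.

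Within the sarcomere list, peaks of single genes went both ways. ENSMUSG00000026421, a structural constituent of muscle at the Z disc, had 2 members side by side on chromosome 1, with 87 reads in the knockout and 53 in the control at chr1:135647306-135647578. At chr1:135647820-135648108 it had 67 and 33, a ratio of 0.93 (0.40 to 1.67). Its companion had 301 and 243 reads, so all 3 pointed to Wtap-CKO. ENSMUSG00000068697, annotated to telethonin binding at the Z disc, had 104 and 55 reads over a start at chr14:20706493-20706771, a ratio of 0.86 (0.44 to 1.42). ENSMUSG00000062929, an actin-severing gene by its terms, had 83 and 52 reads at chr12:54908727-54908975, while its companion had 274 and 339. ENSMUSG00000024049, of the M band, had 126 and 85 reads at chr17:71311341-71311617, with 219 and 248 in its companion.

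Others were lower in Wtap-CKO. ENSMUSG00000060187, annotated to alpha-actinin binding and cardiac muscle cell development, had 117 reads in the knockout and 163 in the control over a start at chr10:116881110-116881377, a ratio of -0.46 (-0.83 to -0.12). ENSMUSG00000015837, an autophagy gene also placed in the sarcomere, had 73 and 121 at chr11:50096285-50096559, a ratio of -0.69 (-1.17 to -0.30). ENSMUSG00000028745, of the actin capping complex, had 45 and 79 at chr4:138961158-138961417, and 81 and 83 at its other member, chr4:138925446-138925738. In that gene the libraries differed at the first site and were even at the second. ENSMUSG00000048096, an actin pointed-end capper, had 55 and 51 reads over a start at chr1:135252344-135252634, with an interval that includes 0.

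The sarcoplasmic reticulum stores and releases the calcium that drives contraction, and its list had the lowest median of the lists with at least 5 members over the floor. The 16 members of 9 genes had a median log2 ratio of -0.30, against -0.16 in 43 wider peaks of the list. Of 12 that passed the floor, 0 differed 2-fold in either direction, the interval lay below 0 in 4 (all peaks 18.3%) and above 0 in 1 (all peaks 19.5%). ENSMUSG00000063450, which anchors nuclei to the cytoskeleton, had 38 reads in the knockout and 76 in the control over a start at chr12:76128491-76128788, a ratio of -0.91 (-1.60 to -0.42). Its other member over the floor had 50 and 78 reads at chr12:75865980-75866265. ENSMUSG00000031791, a cation channel that regulates calcium release in cardiac muscle by its terms, had 62 and 108 at chr8:73326451-73326650 and 127 and 157 at chr8:73325725-73326021. Both of its members were lower in Wtap-CKO, the second with an interval that includes 0. The highest member of the list, of ENSMUSG00000022519 (store-operated calcium entry), had 85 and 54 reads at chr16:4340109-4340367.

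Cell junctions and pacing showed few differences of size. The intercalated disc, which joins cardiomyocytes end to end, had 11 members with a median ratio of -0.13 (wider peaks -0.19). Its highest was ENSMUSG00000026131, a cytoskeletal linker with 74 reads in the knockout and 34 in the control at chr1:34160825-34161036, a ratio of 1.02 (0.52 to 1.76). The gene's companion pointed the other way, with 237 and 364 reads. So did its other member over the floor, at chr1:34051002-34051284, with 59 and 76 reads and an interval that includes 0. The heart contraction list had 13 members with a median of 0.04 (wider peaks -0.16). Its highest was ENSMUSG00000022803, which regulates heart rate by its terms, with 98 and 62 reads at chr16:38188797-38189003 and 436 and 554 in its companion. In both genes the highest narrow peak and the companion pointed in opposite directions.

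Ion channels had 55 members with a median of -0.17 (wider peaks -0.11). Of the 31 that passed the floor, 2 were 2-fold lower (6.45%, all peaks 1.45%) and 0 were 2-fold higher (all peaks 3.5%). The interval lay below 0 in 7 (22.6%, near the 18.3% of all peaks) and above 0 in 0 (all peaks 19.5%). The lowest was ENSMUSG00000042529, an inward rectifier potassium channel of the T-tubule, with 52 reads in the knockout and 111 in the control at chr11:60912972-60913258, a ratio of -1.02 (-1.60 to -0.60). The only other 2-fold lower member belongs to the gap junction gene ENSMUSG00000034520, with 25 and 56 reads over a start at chr11:102709890-102710167. It is also the lowest of the heart development list, whose 47 members had a median of -0.09.

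Lists of energy metabolism had medians on either side of zero. The mitochondrion list had 220 members with a median of 0.03 (wider peaks -0.03), and of 145 that passed the floor 6 were 2-fold higher (4.14%, all peaks 3.5%) and 2 were 2-fold lower (1.38%, all peaks 1.45%). Its lowest was ENSMUSG00000020334, a carnitine transporter, with 31 reads in the knockout and 75 in the control at chr11:53897832-53898109. The 10 members of the fatty acid oxidation list had a median of 0.09, and 0 of the 7 that passed the floor had an interval off 0. The glycolysis list had 11 members and a median of -0.17, like that of ion channels. Its highest, the phosphofructokinase ENSMUSG00000021196, had 79 and 48 reads at chr13:6697756-6697997.

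Lists of gene expression and chromatin included the highest medians, from few members. The ribosome list had 11 members with a median of 0.50 (wider peaks 0.03), which was 0.19 in the 9 that passed the floor. ENSMUSG00000029486, of the large ribosomal subunit, had 61 reads in the knockout and 25 in the control over a start at chr5:96357344-96357627. ENSMUSG00000037772, of the mitochondrial large subunit, had 29 and 61 at chr7:142088784-142089000. The 2 genes mark the ends of a wide spread. The chromatin remodeling list had 15 members with a median of 0.26 (wider peaks -0.07). These are the only lists of those plotted whose medians stayed above 0 with the library totals, at 0.31 and 0.06.

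The mRNA processing list had 37 members with a median of 0.15, RNA binding 115 with 0.07, and DNA-binding transcription factors 161 with -0.07. The highest of mRNA processing was the spliceosome gene ENSMUSG00000039218, with 121 reads in the knockout and 65 in the control at chr17:24025908-24026153. Its companion had 696 and 886 reads, in the other direction. The mRNA methylation list, to which the complex of WTAP belongs, had 2 members, both called in both libraries. ENSMUSG00000024019 had 32 and 43 reads over a start at chr17:29899239-29899475, and ENSMUSG00000041975 had 51 and 59 at chr2:70849689-70849940. Both intervals include 0. The member of ENSMUSG00000024019 lay under the floor, and its companion pointed the other way, with 315 reads in the knockout and 264 in the control.

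The remaining lists plotted include immune, matrix, vessel and erythrocyte terms, which do not stand for cell types. The immune and inflammatory list had 90 members with a median of 0.18 (wider peaks -0.03). Of 54 that passed the floor, 3 were 2-fold higher (5.56%, all peaks 3.5%) and 0 were 2-fold lower (all peaks 1.45%), close to the background at this number. Extracellular matrix had 94 members with 0.05, blood vessel formation 39 with -0.20, and erythrocyte and oxygen transport 8 with 0.16. ENSMUSG00000004328, the highest of the vessel list and a transcription factor by its terms, had 133 and 67 reads over a start at chr7:16796347-16796580, a ratio of 0.94 (0.56 to 1.44). Its other members pointed the other way, with intervals that include 0. They had 52 and 68 reads at chr7:16784951-16785234 and 136 and 157 at chr7:16789956-16790224. ENSMUSG00000069763, the lowest of the vessel list, had 63 and 101 at chr11:89921392-89921647.

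**Figure D5:**
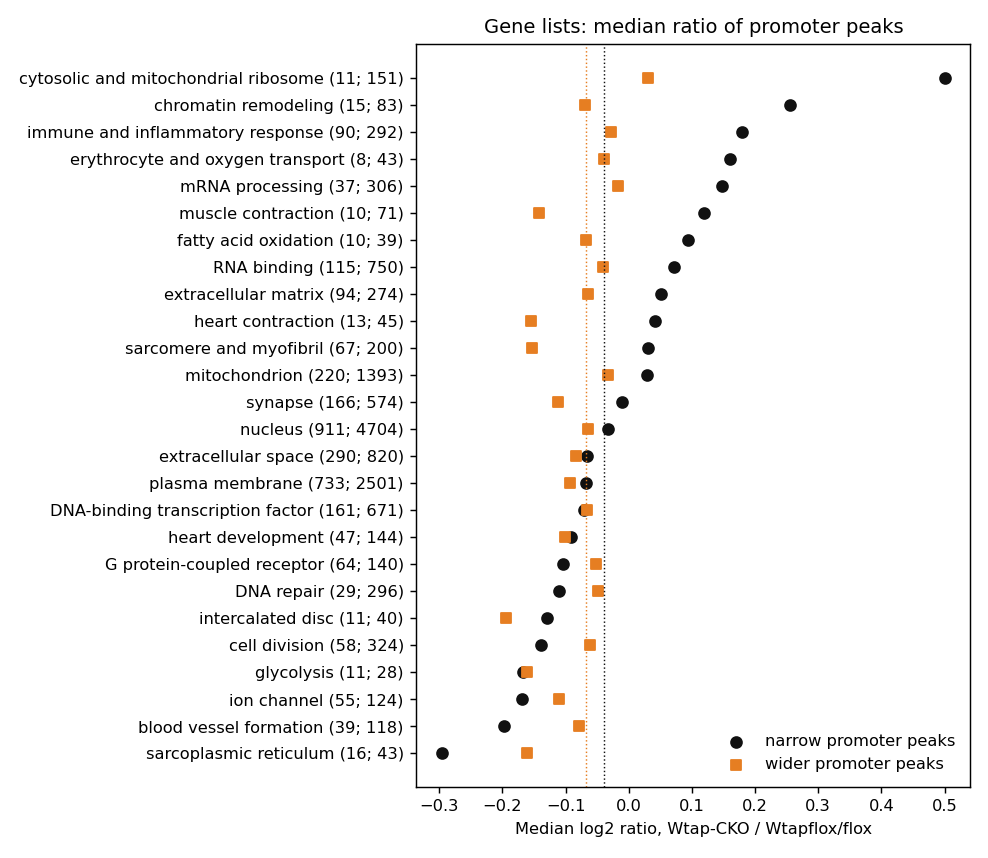
Median log2 ratio, knockout over control, in narrow (black) and wider (orange) promoter peaks for GO lists with at least 5 narrow members over the floor; brackets give the numbers of narrow and wider peaks. Dotted lines mark the medians of all narrow (-0.04) and all wider (-0.07) promoter peaks, and the narrow medians run from -0.30 (sarcoplasmic reticulum) to 0.50 (ribosome).

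The lists took different shares of narrow and wider promoter peaks. Those with a larger share of narrow peaks include plasma membrane 23.9% against 18.7%, extracellular space 9.45% against 6.12%, G protein-coupled receptors 2.09% against 1.05%, and ion channels 1.79% against 0.93%. Olfactory receptor terms were found on 11 members (0.36% against 0.04%). Glycolysis (0.36% against 0.21%) and fatty acid oxidation (0.33% against 0.29%) went the same way. Those with a smaller share include mitochondrion 7.17% against 10.4%, mRNA processing 1.21% against 2.28%, DNA repair 0.94% against 2.21%, and ribosome 0.36% against 1.13%. These shares do not use the ratio between genotypes. They do depend in part on the calls in the 2 libraries, since merging 2 calls widens a peak. No test was run on the shares.

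A group singled out after its values were seen is that of genes annotated to the nucleosome. It had 9 members of 9 genes, 8 of them on chromosome 13, and all 9 had a lower CPM in Wtap-CKO. The library totals move ratios down, by -0.20 at the median of all peaks. All 9 were below 0 with them too, but this was fixed in advance and adds no support. Their median log2 ratio was -0.67 (all members -0.04), with a range of -1.39 to -0.16. Of the 9, 8 were called in Wtapflox/flox only, a mark carried by 42.8% of all members and 21.2% of all peaks. A ratio below 0 goes with that mark: 90.6% of all members called in Wtapflox/flox only had one, and 45.4% of those called in both. ENSMUSG00000061615 had 27 reads in the knockout and 79 in the control over a start at chr13:23935001-23935243, a ratio of -1.39 (-2.23 to -0.90). ENSMUSG00000099583, annotated to nucleosome assembly, had 37 and 97 over a start at chr13:23759814-23760076, a ratio of -1.28 (-1.98 to -0.83). Both are the only promoter peak of their gene.

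The rest of the group held smaller differences. ENSMUSG00000069310 had 36 reads in the knockout and 70 in the control, and ENSMUSG00000058773 had 48 and 85, both with intervals below 0. ENSMUSG00000069265 had 61 and 99 reads, also with an interval below 0. ENSMUSG00000021597 had 36 and 55, ENSMUSG00000069306 had 22 and 38, ENSMUSG00000074403 on chromosome 3 had 50 and 59, and ENSMUSG00000101972 had 86 and 97, with intervals that include 0. Wider promoter peaks of nucleosome genes, 62 in all, had a median of -0.16 (all wider promoter peaks -0.07), and the 35 of them on chromosome 13 had -0.14. Of the 62, 61 were called in both libraries and 42 were below 0. Among all wider promoter peaks called in both, 58.7% were below 0. The companion of ENSMUSG00000058773 had 90 reads in the knockout and 82 in the control, and that of ENSMUSG00000021597 had 252 and 225. Both thus pointed away from their members, while the companion of ENSMUSG00000069306 had 44 and 60. Genes of this group can be near-identical copies, and how reads shared between copies were counted is not given in the sources used here, so single values are uncertain.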

How the data were processed

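Each pool of hearts gave 1 paired-end ATAC-seq library. Tools named in the submitters' processing notes, with no role given, are MACS2 2.1.0, BWA 0.7.12, fastp 0.20.0, ChIPseeker and HOMER 4.11; the build is GRCm39. How the Tn5 offset, duplicates, mitochondrial reads and the peak threshold were handled is not given in the sources used here. Duplicates left in would make counting intervals too narrow. The deposited counts are whole reads per merged peak and library. The deposited RPM equals the count plus 1 times 0.0171 (Wtapflox/flox) or 0.01475 (Wtap-CKO), which implies that 16.8% and 14.5% of each library's reads lie in peaks. The authors also deposited a fold enrichment ratio over an even spread of reads, a log2 ratio of the RPM values, a mark per library for called peaks and a signed distance to the nearest start (a score here). Peaks in the table were each called in at least 1 library, so a weak peak is listed because a count was high somewhere.

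Log2 ratios were computed from counts scaled to reads in peaks (CPM) with 0.5 added, in Python 3.11.15 with pandas 2.3.3, numpy 2.4.6 and scipy 1.17.1; ratios of weak peaks are drawn towards 0. Counting intervals are exact conditional binomial (Clopper-Pearson, 95%); shares have exact binomial intervals. The scripts were checked on simulated data. No replicate exists, so no test between genotypes was made.

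Members and the 28 GO lists were chosen with earlier results of these data known. A list takes members whose closest gene has any of its terms, and lists overlap. Named are the 10 largest ratios in each direction at or above the median reads, the 5 members with the most reads, the highest and lowest member over the floor of each list with at least 5 such members, and members of the 4 contractile lists over the floor; the text gives a selection of the last 2 kinds. Alternatives were pseudocounts, scaling, floor, width limit, fold and promoter window. The reference gene table matched 0 of the IDs, so symbols, cell type markers and sequence motifs were not used here. The terms of 566 further narrow promoter peaks were not in the table used here, and those peaks are not analysed here.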

Additional observations from a re-analysis of the deposited data

How the results depend on the processing

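No paired analysis was possible because each genotype has 1 library, and no replicate could be left out. Of 51 alternative values, 22 stayed within counting error or within 1.5 times the count, 27 moved further and 2 turned around; the causes were not tested beyond what each setting changes by construction. The median log2 ratio of the members was -0.235 with the library totals behind the RPM, -0.0205 over the floor and -0.0571 at a width of up to 350 bp. The difference from wider promoter peaks (0.0284) became 0.0438, 0.0456 and 0.0085 under the same settings. The summed ratio (0.01) turned to -0.21 with the library totals and to -0.0286 at 350 bp, and was 0.0348 at 250 bp. Members 2-fold higher and lower (72 and 36) numbered 16 and 6 with 2 CPM added, 22 and 101 with the library totals, 212 and 133 without a floor, 185 and 106 with a floor of 20 reads, 41 and 14 at 250 bp, and 262 and 201 at 1.5-fold; at 350 bp 55 were lower. The share called in both was 40.6% over the floor, 11.2% at 250 bp and 39.6% at 350 bp. The difference of medians over against off the start (-0.12), a comparison chosen after seeing the data, was -0.0625 at 250 bp, -0.0879 at 350 bp, -0.137 over the floor and -0.0949 with 2 CPM added. All 72 and 36 had counting intervals off 0, but the floor and the fold limit together fix that in advance. It therefore adds no support, although these values are among the 22 that stayed. The 9 nucleosome members below 0 with the library totals are among the 22 as well, and that too was fixed in advance. Depth limits single members, which had a median of 44.5 mean reads, and the spread between animals is not known.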
